A study of Mus musculus with 4 samples.

Results

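The genes described here carry out or signal the repair of DNA double-strand breaks. They are 43 genes of the 54532 in the count tables, matched by symbol, and all 43 had a row in each of the 4 libraries and passed a mean of 1 CPM (counts of a gene per 1000000 counts of its library). They fall into 9 genes of break signalling, 8 of end resection, 13 of homologous recombination, 8 of end joining and 5 of the Fanconi group. A double-strand break is sensed by kinases that mark the surrounding chromatin. It is then either religated directly by end joining or trimmed to single-stranded DNA, a step called end resection, and copied from the sister chromatid by homologous recombination. Recombination needs a sister chromatid and so works in S and G2 phase, whereas classical end joining works throughout the cycle, and the Fanconi genes serve the repair of crosslinks that block replication forks. The protein encoded by human HNRNPUL1 is known as an RNA-binding protein that also acts in DNA end resection with the MRE11 complex. That is why these genes bear on a line labelled Hnrnpul1-/-, in which the protein was not measured here.

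The 4 groups were Hnrnpul1-/- RAW 264.7 cells given lipopolysaccharide (LPS), wild-type cells given LPS, untreated Hnrnpul1-/- cells and untreated wild-type cells, with 1 library each. RAW 264.7 is a mouse macrophage line, LPS is a bacterial surface component, and the dose was 100 ng/ml for 10 h. The labels do not say how the knockout was made, whether it is 1 clone, or whether the cultures were grown side by side, so genotype, clone and culture cannot be told apart.

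The libraries held 17045432 to 17909549 counts. Hnrnpul1, the targeted gene, at chr7:25721165-25754757 on GRCm38, had 21.7 CPM in LPS-treated knockout and 203 in LPS-treated wild type, against 23.1 in untreated knockout cells and 268 in untreated wild-type cells. The knockout level was 10.7% of the wild-type level under LPS and 8.62% of it untreated. All 10 macrophage markers examined were detected in every library, all 6 epithelial markers were at 0, and 5 of 7 fibroblast and 5 of 8 lymphocyte markers were at 0, the other fibroblast markers summing to at most 4 reads and the other lymphocyte markers to at most 6 reads in any library. Levels are CPM scaled by the trimmed mean of M values (TMM), and ratios are log2 ratios of these levels between a pair of libraries, with a 95% interval. A call, higher or lower, required a ratio of 2-fold or more together with an interval that did not contain no change. No ratio has a replicate check with 1 library per group. The intervals hold counting error alone, and the protocols describe no molecular identifiers, so reads are not independent molecules. A call describes these libraries and is not a test of the condition.

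Among the 43 genes, most of the recombination and Fanconi genes were lower after LPS in both genotypes. Most of the 8 end-joining genes were not, and Dclre1c alone among the 43 was called higher. The lowest ratios of the 43 were those of Brca2, a mediator of recombination, at 20.4% in knockout and 17.3% in wild type of the untreated level. Among other genes of these pathways, described below, 7 of 18 recombination and 4 of 15 Fanconi genes were called lower in knockout. In wild type these counts were 6 and 5, and 3 of 13 other end-joining genes were called lower in each genotype. In knockout 24 of the 43 were called lower, against a background of 12.0% of the 11640 genes that passed the filter, and 1 was called higher, against 11.6%. The counts in wild type were also 24 lower, against 10.1%, and 1 higher, against 11.2%. The calls coincided for 23 lower genes and for Dclre1c, while 17 genes were called in neither genotype. The median log2 LPS ratio over the 43 genes was -1.19 in knockout and -1.17 in wild type, that is 43.7% and 44.3% of the untreated level, beside -0.02 and -0.0039 over all genes. The interval lay below no change for 35 genes in knockout and 34 in wild type, against 38.2% and 36.2% of all genes, and above it for 1 and 4 genes, against 37.4% and 37.0%. Scaling by total counts moved the median of all genes to -0.33 in knockout and -0.30 in wild type, and gave 30 lower and 0 higher calls of the 43 in knockout and 31 and 1 in wild type. Over all genes that scaling gave 2156 lower and 989 higher calls in knockout, against 1398 and 1345 with TMM. In wild type it gave 1904 and 975, against 1180 and 1309 with TMM. When the whole interval had to pass 2-fold, 20 of the 43 were lower in knockout and 19 in wild type: the calls of Rad50 and Rad54b in knockout, of Xrcc3, Eme1 and Nhej1 in wild type, and of Rad51c and Fancm in both no longer held. Of all 11640 genes, that rule left 863 lower in knockout and 728 in wild type.

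Across the 43 genes the LPS ratios of knockout and wild type, which share no library, had a Pearson correlation of 0.90, given as a description over genes that are not independent replicates. Summed over the 43 genes, the level was 1028 CPM in LPS-treated knockout and 1054 in LPS-treated wild type, against 2039 in untreated knockout cells and 1987 in untreated wild-type cells. The recombination genes summed to 186 CPM in LPS-treated knockout and 165 in LPS-treated wild type, against 539 in untreated knockout cells and 492 in untreated wild-type cells. The end-joining genes summed to 176 CPM in LPS-treated knockout and 205 in LPS-treated wild type, against 225 in both untreated cultures. These sums weight each gene by its read number and length.

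**Figure D1:**
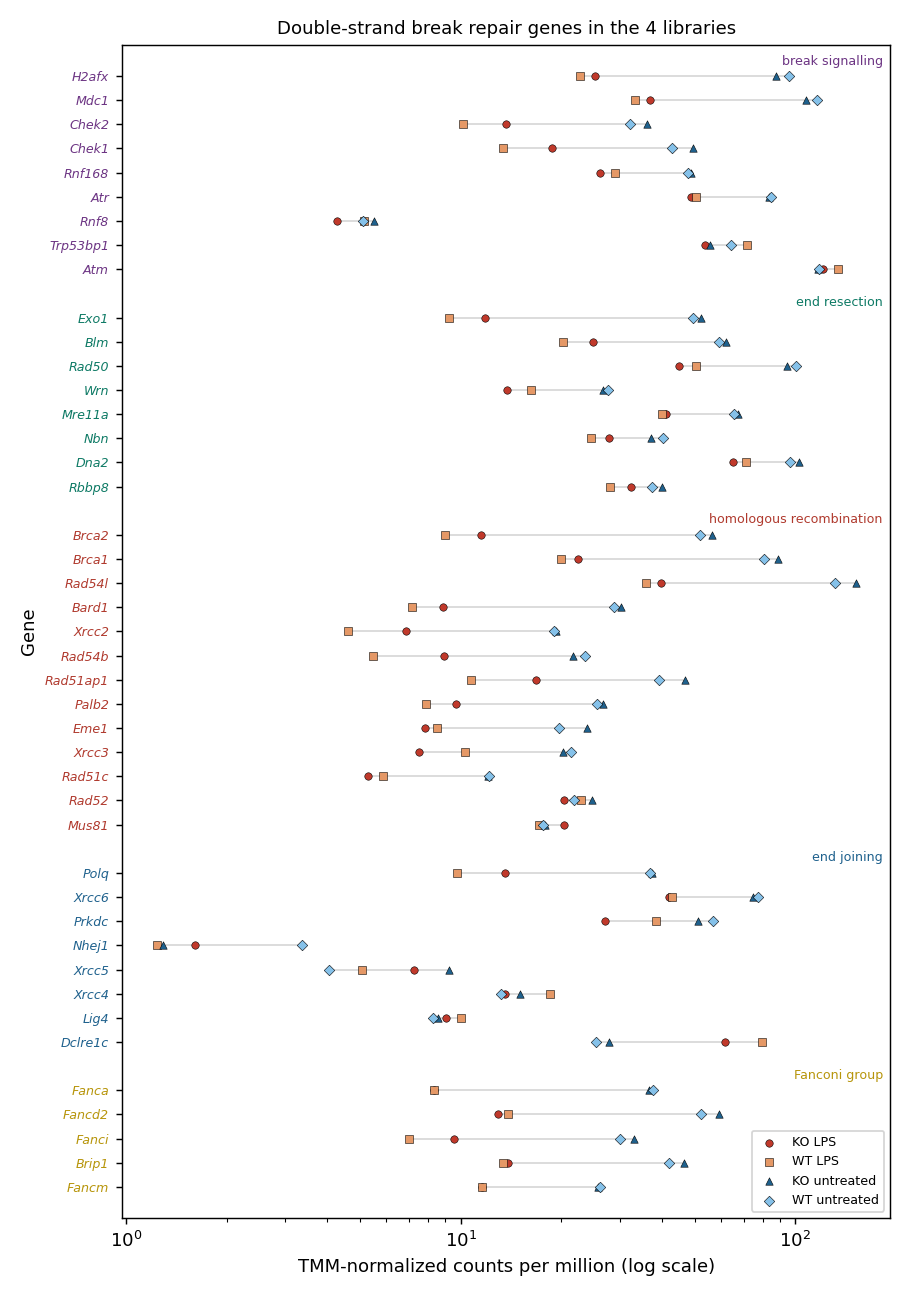
Each row is 1 gene, ordered by role, and the x axis is its level in TMM-normalized CPM on a log scale. Circles are LPS-treated knockout, squares LPS-treated wild type, triangles untreated knockout and diamonds untreated wild type, 1 library each. For most recombination and Fanconi genes the circle and square lie left of the triangle and diamond, whereas for Dclre1c, at 61.7 and 79.7 CPM with LPS, they lie to the right.

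**Figure D2:**
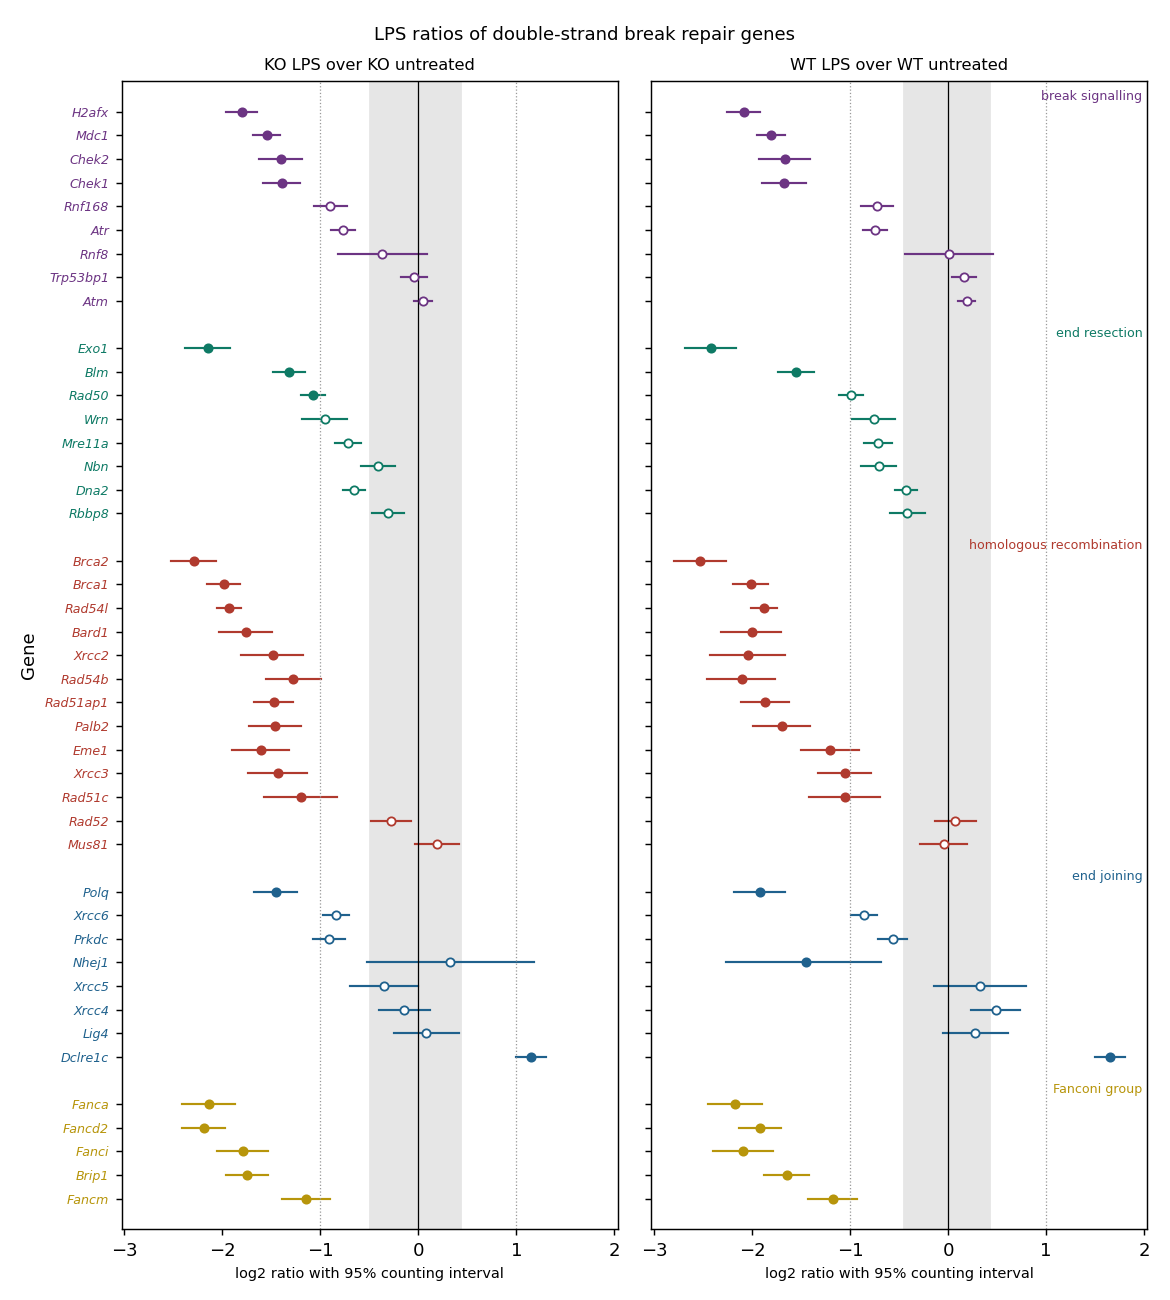
Points are log2 LPS ratios with 95% counting intervals, with knockout on the left and wild type on the right, and filled points are called genes. The grey band holds the middle 50% of all genes and dotted lines mark 2-fold. All 5 Fanconi genes and 11 of 13 recombination genes are filled on the lower side in both panels.

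Some E2F factors drive transcription at the start of S phase, and Brca2, Chek2 and Mdc1 hold letters that match an E2F motif in their reference promoters. The windows were RefSeq's 250 bases before to 50 after the start of each gene on GRCm38.p6, and 33 of the 43 genes had one. The letters were TTTGGCGC, TTTCCCGC or TTTCGCGC on either strand. They stood in 6 of these 33 windows (18.2%), against 2.12% of the 27025 genes in the table, and in 8 of 16 windows of S-phase genes. No filter on expression was applied to the 27025 genes, whereas all 43 passed 1 CPM, so these shares come from unlike sets. Of the 6 genes, 5, namely Chek2, Mdc1, Brca2, Bard1 and Rad51c, were among the 18 genes with a window that were lower with LPS in both genotypes, and Xrcc6 was among the other 15. The letters TTTGAA or TTCGAA, known as the CHR element of mitotic promoters, stood in 5 of 33 windows (15.2%), against 21.7% of all genes and 13 of 17 windows of mitotic genes (76.5%). The sequences below show where the E2F letters stand in 3 lower genes, one for each of checkpoint signalling, chromatin signalling and recombination, read 5′ to 3′ on the strand of the gene with the match in capitals. A match is a description of the reference letters and does not show that a factor binds there.
Chek2, chr5:110839785-110839884, plus strand: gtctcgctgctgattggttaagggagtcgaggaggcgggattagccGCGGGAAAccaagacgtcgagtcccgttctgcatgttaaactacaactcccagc
Mdc1, chr17:35841398-35841497, plus strand: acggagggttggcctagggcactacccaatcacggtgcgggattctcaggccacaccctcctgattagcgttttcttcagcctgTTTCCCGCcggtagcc
Brca2, chr5:150522407-150522506, plus strand: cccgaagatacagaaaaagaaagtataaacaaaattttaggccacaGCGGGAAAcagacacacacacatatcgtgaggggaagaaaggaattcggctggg

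In break signalling, 4 of 9 genes were called lower in each genotype, against 12.0% of all genes in knockout and 10.1% in wild type. The median log2 LPS ratio was -0.90 in knockout and -0.75 in wild type. H2afx, the histone variant phosphorylated around breaks, had 25.2 CPM in LPS-treated knockout and 22.7 in LPS-treated wild type, against 87.7 in untreated knockout cells and 95.9 in untreated wild-type cells. Mdc1, which binds that phosphorylated histone, had 36.8 CPM in LPS-treated knockout and 33.1 in LPS-treated wild type, against 108 in untreated knockout cells and 116 in untreated wild-type cells. Both LPS libraries were far below both untreated ones for each gene: the log2 LPS ratio of H2afx was -1.80 (-1.96 to -1.64) in knockout and -2.08 (-2.25 to -1.92) in wild type, and that of Mdc1 was -1.55 (-1.68 to -1.42) in knockout and -1.81 (-1.95 to -1.67) in wild type. Chek1, the checkpoint kinase below Atr, had 18.8 CPM in LPS-treated knockout and 13.4 in LPS-treated wild type, against 49.4 in untreated knockout cells and 42.7 in untreated wild-type cells. Chek2, the kinase below Atm and one of the genes with the E2F letters shown above, had 13.7 CPM in LPS-treated knockout and 10.2 in LPS-treated wild type, against 36.1 in untreated knockout cells and 32.2 in untreated wild-type cells. The log2 LPS ratio of Chek1 was -1.39 (-1.58 to -1.20) in knockout and -1.67 (-1.90 to -1.45) in wild type, and that of Chek2 was -1.40 (-1.63 to -1.18) in knockout and -1.66 (-1.93 to -1.41) in wild type. For both kinases each LPS library was below each untreated one, and the knockout library was above the wild-type one in each treatment by a smaller margin. The other 5 genes lay between -0.90 and 0.05 in knockout and between -0.75 and 0.19 in wild type on the log2 scale. Among them Atm, the kinase that responds first to breaks, was at 103% in knockout and 114% in wild type of the untreated level, and Trp53bp1, which restrains resection, at 96.9% in knockout and 112% in wild type. Atr, the kinase that responds to single-stranded DNA, was at 58.7% in knockout and 59.6% in wild type. The ubiquitin ligases Rnf8 and Rnf168 had log2 ratios of -0.37 in knockout and 0.01 in wild type and of -0.90 in knockout and -0.73 in wild type.

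In end resection, the step in which human HNRNPUL1 is known to act, 3 of 8 genes were called lower in knockout and 2 in wild type. The shares of all genes were 12.0% and 10.1%, and the median log2 LPS ratios of the 8 genes were -0.84 and -0.74. Exo1, a nuclease of long-range resection at chr1:175880581-175913489, had 11.8 CPM in LPS-treated knockout and 9.25 in LPS-treated wild type, against 52.2 in untreated knockout cells and 49.3 in untreated wild-type cells. It was at 22.6% in knockout and 18.7% in wild type of the untreated level, with log2 ratios of -2.15 (-2.38 to -1.92) in knockout and -2.42 (-2.68 to -2.16) in wild type. Blm, the helicase that unwinds DNA ahead of the nuclease Dna2, had 24.9 CPM in LPS-treated knockout and 20.3 in LPS-treated wild type, against 62.1 in untreated knockout cells and 59.3 in untreated wild-type cells, with log2 ratios of -1.32 (-1.49 to -1.15) in knockout and -1.55 (-1.74 to -1.37) in wild type. Rad50, the ATPase of the Mre11 complex, had 44.8 CPM in LPS-treated knockout and 50.5 in LPS-treated wild type, against 94.5 in untreated knockout cells and 100.2 in untreated wild-type cells. Its log2 ratio of -1.08 (-1.20 to -0.95) in knockout passed 2-fold and that of -0.99 (-1.11 to -0.87) in wild type stopped just short, and the difference of -0.09 (-0.26 to 0.08) between them had an interval that included 0. The nuclease Mre11a was at 60.8% in knockout and 60.9% in wild type of the untreated level. Nbn, the third subunit, was at 75.3% in knockout and 61.1% in wild type, and Rbbp8, the cofactor that starts resection, had log2 ratios of -0.31 in knockout and -0.41 in wild type. Dna2 was at 63.5% in knockout and 74.2% in wild type and the helicase Wrn at 51.6% in knockout and 59.0% in wild type. All 8 resection genes had ratios below 0 in both genotypes, and the point ratios of Exo1 and Blm were the lowest of them.

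In homologous recombination, 11 of 13 genes were called lower in each genotype, against 12.0% of all genes in knockout and 10.1% in wild type. The median log2 LPS ratio was -1.47 in knockout and -1.86 in wild type. Brca2, which acts on resected single-stranded DNA and lies at chr5:150522630-150570329, had the lowest ratio of the 43 genes in both genotypes. It had 11.5 CPM in LPS-treated knockout and 8.99 in LPS-treated wild type, against 56.3 in untreated knockout cells and 51.9 in untreated wild-type cells, so the LPS-treated cultures held 20.4% in knockout and 17.3% in wild type of the untreated level, with log2 ratios of -2.29 (-2.52 to -2.07) in knockout and -2.53 (-2.80 to -2.27) in wild type. Brca1 had 22.4 CPM in LPS-treated knockout and 19.9 in LPS-treated wild type, against 88.6 in untreated knockout cells and 80.5 in untreated wild-type cells. Its partner in a ubiquitin ligase, Bard1, had 8.88 CPM in LPS-treated knockout and 7.16 in LPS-treated wild type, against 30.1 in untreated knockout cells and 28.7 in untreated wild-type cells. Palb2, which joins Brca1 to Brca2, had 9.69 CPM in LPS-treated knockout and 7.88 in LPS-treated wild type, against 26.7 in untreated knockout cells and 25.5 in untreated wild-type cells. All 4 genes of this axis were below 40% of the untreated level in both genotypes: the log2 ratios were -1.99 in knockout and -2.01 in wild type for Brca1, -1.76 in knockout and -2.00 in wild type for Bard1 and -1.46 in knockout and -1.70 in wild type for Palb2.

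The genes of strand exchange were lower as well. Rad54l, a DNA translocase of strand exchange, had 39.6 CPM in LPS-treated knockout and 35.9 in LPS-treated wild type, against 151 in untreated knockout cells and 132 in untreated wild-type cells. Its paralog Rad54b had 8.94 CPM in LPS-treated knockout and 5.47 in LPS-treated wild type, against 21.6 in untreated knockout cells and 23.5 in untreated wild-type cells. The log2 LPS ratio of Rad54l was -1.93 in knockout and -1.87 in wild type, nearly equal, whereas that of Rad54b was -1.27 in knockout and -2.10 in wild type, the widest gap between genotypes among the recombination genes. Rad51ap1, which stimulates strand invasion, had 16.8 CPM in LPS-treated knockout and 10.7 in LPS-treated wild type, against 46.8 in untreated knockout cells and 39.1 in untreated wild-type cells, with log2 ratios of -1.47 in knockout and -1.86 in wild type. Xrcc2, Xrcc3 and Rad51c, which assist strand exchange, were all called lower in both genotypes. Xrcc2 had 6.89 CPM in LPS-treated knockout and 4.62 in LPS-treated wild type, against 19.3 in untreated knockout cells and 19.0 in untreated wild-type cells. Xrcc3 had 7.51 CPM in LPS-treated knockout and 10.3 in LPS-treated wild type, against 20.2 in untreated knockout cells and 21.4 in untreated wild-type cells. Rad51c had 5.28 CPM in LPS-treated knockout and 5.86 in LPS-treated wild type, against 12.1 in untreated knockout cells and 12.2 in untreated wild-type cells. Their log2 ratios were -1.49 in knockout and -2.04 in wild type for Xrcc2, -1.43 in knockout and -1.05 in wild type for Xrcc3 and -1.19 in knockout and -1.05 in wild type for Rad51c, so that Xrcc2 was lower in wild type and the other 2 in knockout by point value. Eme1, a subunit of a nuclease that cuts branched DNA, had 7.83 CPM in LPS-treated knockout and 8.53 in LPS-treated wild type, against 23.9 in untreated knockout cells and 19.6 in untreated wild-type cells, with log2 ratios of -1.61 in knockout and -1.20 in wild type. Its catalytic partner Mus81 was at 114% in knockout and 96.8% in wild type of the untreated level, and Rad52, which anneals single strands, at 82.5% in knockout and 105% in wild type, and neither was called.

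All 5 Fanconi genes were called lower in each genotype, against 12.0% of all genes in knockout and 10.1% in wild type. Their median log2 LPS ratios were -1.79 in knockout and -1.92 in wild type. Fancd2 had 13.0 CPM in LPS-treated knockout and 13.9 in LPS-treated wild type, against 59.1 in untreated knockout cells and 52.3 in untreated wild-type cells. Fanci, which is ubiquitinated together with Fancd2 at stalled forks, had 9.56 CPM in LPS-treated knockout and 7.03 in LPS-treated wild type, against 33.0 in untreated knockout cells and 29.9 in untreated wild-type cells. Fanca, a subunit of the core complex that carries out this step, had 8.32 CPM in LPS-treated knockout and 8.34 in LPS-treated wild type, against 36.6 in untreated knockout cells and 37.5 in untreated wild-type cells. The LPS-treated libraries held less than 30% of the untreated level of each: 22.0% in knockout and 26.5% in wild type for Fancd2, 29.0% in knockout and 23.5% in wild type for Fanci and 22.7% in knockout and 22.2% in wild type for Fanca. Brip1, a helicase that binds Brca1, had 13.8 CPM in LPS-treated knockout and 13.4 in LPS-treated wild type, against 46.4 in untreated knockout cells and 42.0 in untreated wild-type cells, with log2 ratios of -1.74 in knockout and -1.65 in wild type. Fancm, a translocase that remodels forks, had 11.6 CPM in LPS-treated knockout and 11.6 in LPS-treated wild type, against 25.7 in untreated knockout cells and 26.2 in untreated wild-type cells. Its log2 ratios of -1.14 (-1.39 to -0.90) in knockout and -1.17 (-1.43 to -0.92) in wild type were the nearest to 0 of the Fanconi group.

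Of the 8 end-joining genes, 1 was called lower and 1 higher in knockout, close to the background of 12.0% and 11.6% of all genes. In wild type 2 were called lower, against 10.1%, and 1 higher, against 11.2%, and the median log2 LPS ratios were -0.25 in knockout and -0.14 in wild type. Polq, a polymerase that joins ends through short homologies after resection, had 13.6 CPM in LPS-treated knockout and 9.77 in LPS-treated wild type, against 37.3 in untreated knockout cells and 36.9 in untreated wild-type cells, with log2 ratios of -1.46 (-1.68 to -1.24) in knockout and -1.92 (-2.18 to -1.66) in wild type. Dclre1c, the nuclease Artemis that opens hairpins and trims ends for ligation, lies at chr2:3424131-3464130 and had 61.7 CPM in LPS-treated knockout and 79.7 in LPS-treated wild type, against 27.8 in untreated knockout cells and 25.4 in untreated wild-type cells. Both LPS libraries were above both untreated ones, with log2 ratios of 1.15 in knockout and 1.65 in wild type. These equal 222% (interval 199.7 to 247) of the untreated level in knockout and 314% (282 to 349) in wild type. The knockout call did not hold with total-count scaling, where the ratio was 0.84, with deposited FPKM, where it was 0.94, or when the whole interval had to pass 2-fold, while wild type was called higher under all of the alternatives run. Nhej1, a factor that bridges ends beside Xrcc4, had few reads, with 26 reads in LPS-treated knockout and 19 in LPS-treated wild type, against 25 in untreated knockout cells and 64 in untreated wild-type cells. Its log2 LPS ratio was 0.32 (-0.53 to 1.18) in knockout and -1.44 (-2.27 to -0.69) in wild type, and the wild-type call rests on the 64 reads of 1 untreated library. The ends are bound by Ku, made of Xrcc5 and Xrcc6, and Xrcc6 was at 56.0% in knockout and 55.2% in wild type of the untreated level. Xrcc5 was at 78.6% in knockout and 125% in wild type, on few reads. Prkdc, the kinase that Ku recruits and Artemis depends on, was at 53.1% in knockout and 67.5% in wild type. Lig4, the ligase, was at 106% in knockout and 121% in wild type and its cofactor Xrcc4 at 90.5% in knockout and 140.0% in wild type.

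An additive model of genotype and LPS over all 4 libraries (edgeR's quasi-likelihood test with Benjamini-Hochberg adjustment over 11640 genes) has 1 residual degree of freedom, and its spread is the departure from additivity and not the spread between cultures. In it 33 of the 43 genes fell with LPS, against 30.1% of all genes, and 1 rose, against 30.2%. The smallest adjusted p was 3.8e-07, for Rad54l, whose fitted log2 LPS effect was -1.90. The 9 genes that did not pass were Atm, Rnf8, Trp53bp1, Rad52, Mus81, Xrcc4, Xrcc5, Lig4 and Nhej1. With a 2-fold limit added, 24 fell and 1 rose. DESeq2's additive Wald test gave 32 lower and 1 higher. The shares of all genes under that limit and in DESeq2's test are not given here, so these counts have no background beside them.

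The other genes of these pathways, 80 found of 84 symbols listed, 78 of them past the filter, included calls in both directions. Of the 78, 22 were called lower and 3 higher in each genotype, and the median log2 LPS ratio was -0.57 in knockout and -0.49 in wild type. The shares of all genes called lower and higher were 12.0% and 11.6% in knockout, and 10.1% and 11.2% in wild type. Recql4, a helicase of the Blm family, had 8.32 CPM in LPS-treated knockout and 7.62 in LPS-treated wild type, against 35.7 in untreated knockout cells and 32.7 in untreated wild-type cells. Fignl1, an ATPase of recombination, had 18.3 CPM in LPS-treated knockout and 12.6 in LPS-treated wild type, against 68.7 in untreated knockout cells and 60.5 in untreated wild-type cells, and Fancb of the Fanconi core complex had 3.85 CPM in LPS-treated knockout and 2.87 in LPS-treated wild type, against 16.2 in untreated knockout cells and 14.4 in untreated wild-type cells. The 3 genes called higher were Samhd1, Polm and Ercc1. Samhd1, a nucleotide hydrolase that also promotes resection, had 585 CPM in LPS-treated knockout and 563 in LPS-treated wild type, against 137 in untreated knockout cells and 125 in untreated wild-type cells. Ercc1, a subunit of a nuclease of crosslink and excision repair, had 74.0 CPM in LPS-treated knockout and 63.9 in LPS-treated wild type, against 9.65 in untreated knockout cells and 10.9 in untreated wild-type cells. Polm, a polymerase of end joining, had 27.2 CPM in LPS-treated knockout and 20.3 in LPS-treated wild type, against 9.40 in untreated knockout cells and 7.84 in untreated wild-type cells. These 3 had log2 ratios of 2.09 in knockout and 2.17 in wild type for Samhd1, 2.94 in knockout and 2.54 in wild type for Ercc1 and 1.53 in knockout and 1.37 in wild type for Polm, so that Polm and Dclre1c were the end-joining genes called higher in both genotypes. By role the number called lower in knockout and in wild type was 4 and 4 of 18 in signalling, 4 and 4 of 14 in resection, 7 and 6 of 18 in recombination, 3 and 3 of 13 in end joining, and 4 and 5 of 15 in the Fanconi group. Their median log2 LPS ratios in knockout and in wild type were -0.15 and -0.09 in signalling and -0.74 and -0.66 in resection. These medians were -0.86 and -0.80 in recombination, -0.56 and -0.28 in end joining, and -0.69 and -0.60 in the Fanconi group.

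Genes of the cell cycle were lower in the same libraries. The share of all genes called lower was 12.0% in knockout and 10.1% in wild type. All 20 mitotic genes were called lower in each genotype, with median log2 LPS ratios of -1.91 in knockout and -2.17 in wild type, led by Cenpf at -3.40 in knockout and -3.23 in wild type. Of 20 S-phase genes, 13 were called lower in knockout and 15 in wild type, with medians of -1.12 and -1.23, led by Tk1 at -2.79 in knockout and -2.55 in wild type. Of 15 E2F and MuvB regulators, 9 and 10 were called lower, among them Foxm1, which drives mitotic genes, at -2.62 in knockout and -2.68 in wild type, and E2f8 at -2.13 in knockout and -2.59 in wild type. Cdkn1a, the inhibitor p21 of cyclin-dependent kinases, was the one regulator called higher, with 559.6 CPM in LPS-treated knockout and 669 in LPS-treated wild type, against 159 in untreated knockout cells and 179 in untreated wild-type cells. The part of these lists in the ratios of the repair genes was not tested, and in a bulk library fewer cells in S phase and less RNA per cell cannot be told apart.

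**Figure D3:**
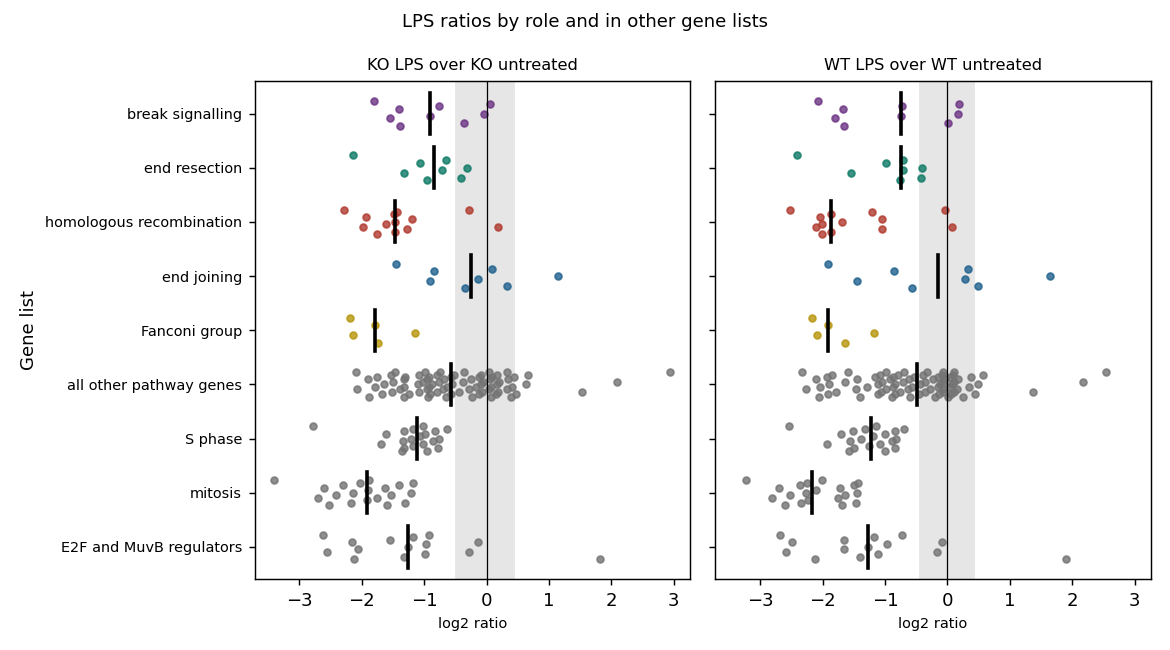
Each point is the log2 LPS ratio of 1 gene, with knockout on the left and wild type on the right, and the black bar is the median of its list. Rows give the 5 roles of the 43 genes, the other pathway genes and 3 cell-cycle lists, and the grey band holds the middle 50% of all genes. The Fanconi median of -1.79 in knockout lies near the mitotic median of -1.91, and the end-joining median of -0.25 lies inside the band. Among the other pathway genes, which share 1 row, the knockout median was -0.69 over Fanconi genes and -0.56 over end-joining genes.

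Between genotypes few of the repair genes were called in either treatment. Under LPS 0 of the 43 genes were called, against a background of 1.66% higher and 1.83% lower. Untreated, Xrcc5 was called higher and Nhej1 lower in knockout, against 1.15% and 0.859% of all genes. In each treatment 41 of the 43 genes (95.3%) lay within 1.5-fold of wild type, as did 89.2% of all genes under LPS and 93.1% untreated. The median log2 genotype ratio was 0.05 in both treatments, beside 0.0013 under LPS and 0.0068 untreated over all genes. By role the medians under LPS were -0.04 in signalling, 0.11 in resection, 0.25 in recombination, -0.08 in end joining and 0.0025 in the Fanconi group. Untreated they were -0.0069 in signalling, 0.05 in resection, 0.07 in recombination, 0.03 in end joining and 0.14 in the Fanconi group. Under LPS the interval lay above no change for 13 genes and below it for 8, against 20.1% of all genes on either side, and untreated for 10 and 5, against 15.8% and 15.2%. The genotype ratios under LPS and untreated had a Pearson correlation of 0.10 across the 43 genes, given as a description.

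Xrcc5, the large subunit of Ku at chr1:72307421-72394952, had 7.27 CPM in knockout and 5.08 in wild type under LPS, and 9.24 in knockout and 4.05 in wild type untreated. It had 117 reads in LPS-treated knockout and 78 in LPS-treated wild type, against 179 in untreated knockout cells and 77 in untreated wild-type cells, and the knockout library was above the wild-type one in both treatments. The log2 genotype ratio was 0.52 (0.09 to 0.95) under LPS and 1.19 (0.80 to 1.59) untreated. Xrcc6, the small subunit, had 42.0 CPM in knockout and 42.7 in wild type under LPS, and 74.9 in knockout and 77.3 in wild type untreated, with log2 genotype ratios of -0.02 and -0.04. Nhej1, at chr1:74967139-75125200, had 1.61 CPM in knockout and 1.24 in wild type under LPS, and 1.29 in knockout and 3.37 in wild type untreated, and the untreated wild-type library stood above the other 3. Its log2 genotype ratio was 0.38 (-0.53 to 1.32) under LPS and -1.38 (-2.11 to -0.70) untreated. Neither untreated call held when the whole interval had to pass 2-fold, or with deposited FPKM, where the ratios were 0.82 for Xrcc5 and -0.89 for Nhej1, and neither gene reached a mean of 10 CPM.

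The resection genes, with which the targeted gene is linked in human cells, had log2 genotype ratios between -0.24 and 0.35 under LPS and between -0.12 and 0.10 untreated. Those of the Mre11 complex were 0.04 under LPS and 0.04 untreated for Mre11a, -0.17 and -0.08 for Rad50, and 0.18 and -0.12 for Nbn. Among recombination genes under LPS the highest ratios were those of Rad54b, at 0.71 (0.31 to 1.11), and Rad51ap1, at 0.65 (0.36 to 0.94). Untreated, Rad51ap1 was at 0.26 (0.12 to 0.40) and Rad54b at -0.12 (-0.31 to 0.08). Chek1, Chek2, Rad51ap1 and Xrcc5 had intervals above no change in both treatments. Trp53bp1 and Prkdc had intervals below it in both: for Trp53bp1 the log2 ratio was -0.42 under LPS and -0.21 untreated, and for Prkdc -0.50 and -0.15. Of all genes, 20.1% had an interval above no change under LPS and 15.8% untreated, and 20.1% and 15.2% had one below. The share of all genes with the same side in both treatments was not computed. Under LPS the S-phase list had a median log2 genotype ratio of 0.24 and the mitotic list of 0.19, and the part of these lists was not tested.

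In the additive model 0 of the 43 genes passed an adjusted p of 0.05 for genotype (edgeR's quasi-likelihood test), against 0.988% of all genes higher and 0.928% lower. At an unadjusted p under 0.05 there were 6 genes, against 13.2% of all genes. The smallest adjusted p was 0.12, for Xrcc5, with a fitted log2 effect of 0.86 and a higher knockout library in both treatments. Without a filter on low counts its adjusted p was 0.033. DESeq2 gave 0 genes, 2 at an unadjusted p under 0.05, and the shares of all genes in its test are not given here.

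**Figure D4:**
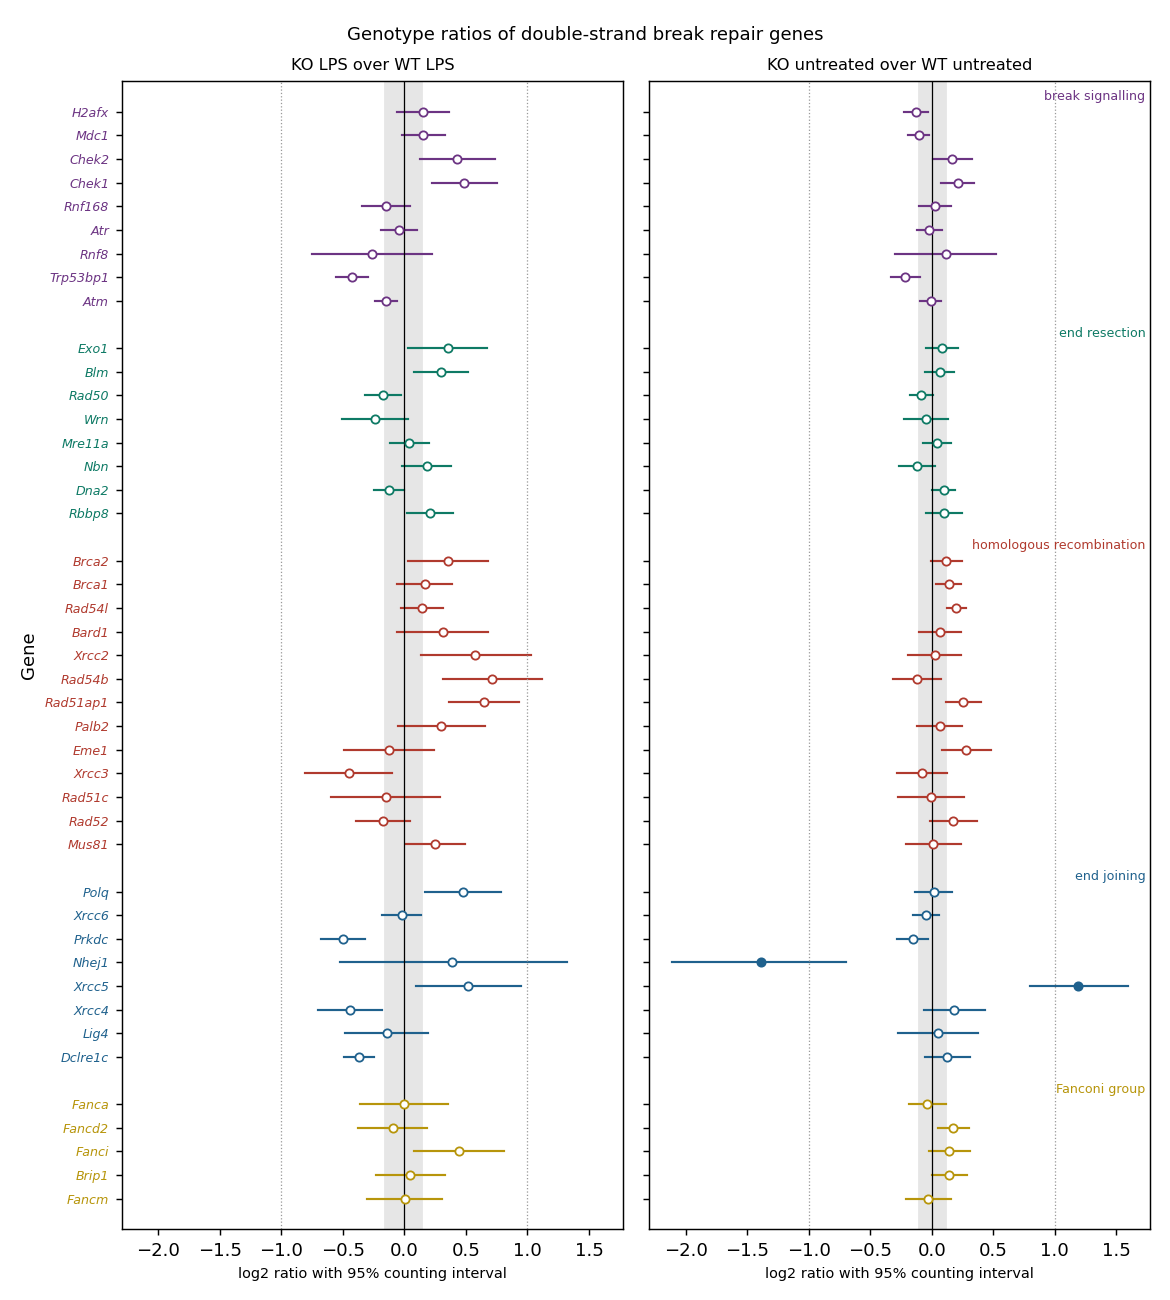
Points are log2 ratios of knockout over wild type with 95% counting intervals, under LPS on the left and untreated on the right, and filled points are called genes. The grey band holds the middle 50% of all genes and dotted lines mark 2-fold. Only Xrcc5, at 1.19, and Nhej1, at -1.38, are filled, both untreated.

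**Figure D5:**
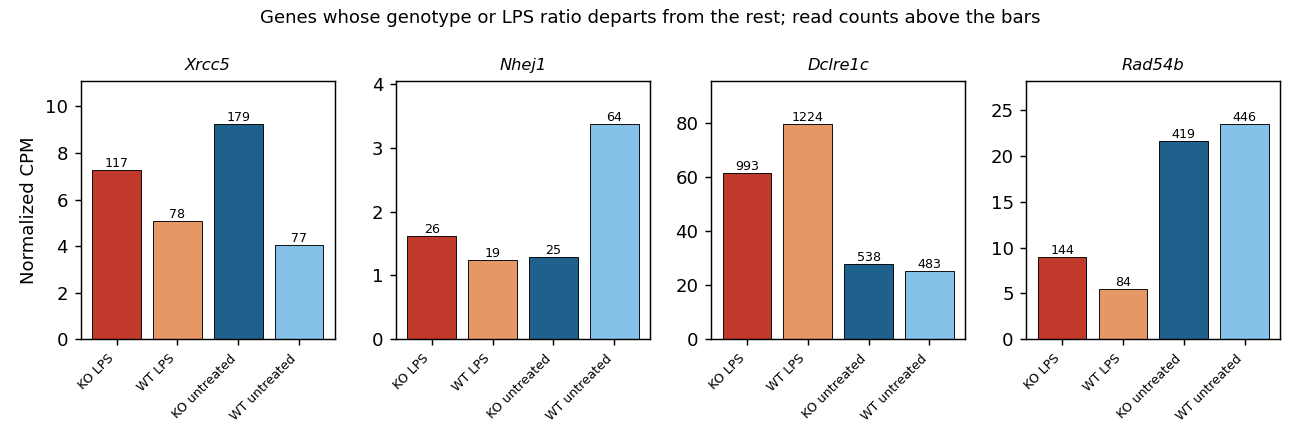
Bars are TMM-normalized CPM in LPS-treated knockout, LPS-treated wild type, untreated knockout and untreated wild type, 1 library each, with read counts above them and axes that start at 0. Nhej1 has its highest bar in untreated wild type, at 64 reads, Xrcc5 its lowest there, at 77 reads, and Dclre1c its highest bars with LPS.

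The difference between the LPS ratios, knockout minus wild type, was called for 1 of the 43 genes, Nhej1, which was higher at 1.77 (0.68 to 2.85), against a background of 1.19% higher and 1.84% lower. The interval of this difference lay above 0 for 8 genes and below it for 9, against 13.9% and 15.7% of all genes. Above 0 were H2afx, Mdc1, Nbn, Rad51ap1, Rad54b, Xrcc2, Nhej1 and Polq. The difference was 0.83 (0.39 to 1.26) for Rad54b, 0.55 (0.08 to 1.03) for Xrcc2 and 0.46 (0.13 to 0.80) for Polq, all less negative LPS ratios in knockout. Below 0 were Atm, Trp53bp1, Dna2, Rad52, Eme1, Xrcc4, Xrcc5, Prkdc and Dclre1c. The lowest difference of the 43 was that of Xrcc5, at -0.67 on few reads. The difference was -0.50 (-0.71 to -0.28) for Dclre1c, which had the smaller LPS ratio in knockout, and -0.35 (-0.57 to -0.13) for Prkdc. The difference was above 0 for 22 of the 43 genes and below it for 21, and over all genes for 5609 and 6031. Of the 23 genes lower in both genotypes, 17 had the more negative LPS ratio in wild type. These 23 were chosen by the same LPS ratios, and the matching share of all genes was not computed. The difference was also above 0 for 15 of 20 mitotic genes, 15 of 20 S-phase genes and 7 of 15 E2F and MuvB regulators. The median difference was -0.02 over break signalling, 0.05 over resection, 0.23 over recombination, -0.27 over end joining and 0.03 over the Fanconi group. It was 0.02 over all 43 genes and -0.01 over all genes tested, and among the other pathway genes 0.10 over recombination and -0.07 over end joining. Over the mitotic list it was 0.12.

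Levels between genes were compared per kilobase of exon. H2afx was the most abundant of the 43 in each library, with 18.2 CPM per kb in LPS-treated knockout and 16.4 in LPS-treated wild type, against 63.4 in untreated knockout cells and 69.3 in untreated wild-type cells. The median gene had 2.83 CPM per kb in LPS-treated knockout and 2.34 in LPS-treated wild type, against 5.71 in untreated knockout cells and 5.18 in untreated wild-type cells. The lowest was Brca2 in both LPS libraries, at 0.842 and 0.659 CPM per kb in knockout and wild type, Nhej1 in untreated knockout, at 1.15, and Xrcc5 in untreated wild type, at 1.59.

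Exons of 20 of the 43 genes share bases with those of another gene in GENCODE M21, 14 of them with a protein-coding gene. The strand setting of the counting was not stated by any source used here, so reads in shared bases cannot be assigned to 1 gene with certainty. Dclre1c shares 357 bases with Suv39h2 on the opposite strand, whose log2 LPS ratio was -0.79 in knockout and -0.87 in wild type, opposite in sign to that of Dclre1c. Eme1 shares 221 bases with Lrrc59, at 1.03 in knockout and 0.94 in wild type, also opposite in sign to Eme1. Rad54b shares 2068 bases with Fsbp on the same strand, which was at -1.32 in knockout and -1.95 in wild type, and Rnf8 shares 1542 with Gm28043 on the same strand, so the values of Rad54b and Rnf8 are uncertain. Trp53bp1 shares 2130 bases with Tubgcp4, Rad54l 1184 with Lrrc41, Fanci 921 with Polg and Fanca 920 with Zfp276, each on the opposite strand. Of the 3 higher genes outside the 43, Ercc1 shares 106 bases with Cd3eap on the opposite strand, whose log2 LPS ratio was 0.01 in knockout and -0.09 in wild type.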

How the data were processed

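Polyadenylated RNA of 4 RAW 264.7 cultures was sequenced, 1 library per group. The deposited counts are whole reads per gene, not normalized, and the deposited FPKM are those counts per length and per library constant, per the file headers and values. Per the submitters' processing notes, the tools were HISAT2 2.0.5, CASAVA 1.8 and featureCounts 1.5.0-p3, with mm10 and GRCm38 as builds. Strand use in counting was not stated.

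TMM scaling came from edgeR 4.0.16 (R 4.3.3) and used the 11640 genes that averaged 1 CPM or more. Ratios carry exact conditional 95% intervals, and their differences delta-method intervals. The additive model used edgeR, with DESeq2 1.42.0 as an alternative. The edgeR fit and the calling of ratios were run on simulated counts with a spread set in advance, which cannot show the spread between cultures. A floor of 3 counts corresponds to 0.155 to 0.195 CPM. Other alternatives were DESeq2 size factors, total counts, TMM over protein-coding genes, other filters, 1.5-fold and whole-interval rules, and FPKM as log2(value + 1).

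Values in every library are given for members called in any ratio and for Hnrnpul1, and up to 4 genes of other lists by size of ratio; Cdkn1a was added after its values were seen. The members and lists were chosen with earlier results of these data known. Promoters are RefSeq's, exons GENCODE M21, both on GRCm38. Rbbp8 sequence and proteins were not used here.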

Additional observations from a re-analysis of the deposited data

Results flagged for a closer look

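Nhej1 was the one gene of the 43 whose LPS ratio differed between genotypes past 2-fold with an interval that excluded 0. The log2 LPS ratio was 0.32 (-0.53 to 1.18) in knockout and -1.44 (-2.27 to -0.69) in wild type, a difference of 1.77 (0.68 to 2.85). It had 26 reads in LPS-treated knockout and 19 in LPS-treated wild type, against 25 in untreated knockout cells and 64 in untreated wild-type cells. The difference between conditions was not tested, since each group held 1 library and the interval covers counting error only.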

How the results depend on the processing

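No paired analysis was possible because each group held 1 library, so no replicate numbers pair libraries across groups; the additive model is the fit that sets genotype within treatment and LPS within genotype. No result changed direction under the alternatives run. With total counts the median LPS log2 ratio over the 43 genes was -1.51 in knockout and -1.47 in wild type, and 0 genes were called higher in knockout. With deposited FPKM on the log2(value + 1) scale, which understates low genes, the medians were -0.88 and -0.91, 0 genes were called higher in knockout, 0 in either direction between untreated genotypes, and 17 genes were lower in knockout and 19 in wild type. Of the 10923 genes kept on that scale, 766 were lower with LPS in knockout and 681 in wild type. Higher with LPS in knockout were 1054, and 61 were higher and 46 lower between untreated genotypes. When the whole interval had to pass 2-fold, 20 genes were lower in knockout and 19 in wild type, and 0 were called higher in knockout with LPS, 0 in either direction between untreated genotypes, and 0 in the difference of LPS ratios. Of all 11640 genes, 863 were lower with LPS in knockout and 728 in wild type under that rule. It also left 1057 higher with LPS in knockout, and 28 higher and 20 lower between untreated genotypes. The difference was higher for 12 of all genes and lower for 27. At a mean of 10 CPM 38 genes were left, with 0 calls between untreated genotypes and 0 in the difference. Of all 8799 genes at that mean, 27 were called higher and 16 lower between untreated genotypes. Their difference was called higher for 21 and lower for 41. The 1.5-fold rule gave 2 genes higher in knockout under LPS and a difference called higher for 2 and lower for 2. Of all 11640 genes, that rule called 463 higher in knockout under LPS, and the difference higher for 307 and lower for 449. Without a filter, the additive genotype effect was higher for 1 gene, Xrcc5. DESeq2 size factors and TMM over protein-coding genes moved no count of calls in the 4 ratios or the difference. Depth limits Nhej1 and Xrcc5, at 19 to 179 reads a library.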

Other observations

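The 2 subunits of Ku, which act as a pair, differed in how their levels stood to each other. Per kilobase of exon, the level of Xrcc6 over that of Xrcc5 was 3.30 (95% counting interval 2.71 to 4.05) in LPS-treated knockout and 4.79 (3.79 to 6.14) in LPS-treated wild type, against 4.63 (3.96 to 5.44) in untreated knockout and 10.9 (8.65 to 13.9) in untreated wild type. The highest value was that of untreated wild type, where Xrcc5 had 77 reads. These genes were picked after their values were seen.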
